A study of Ovis aries with 24 samples.

Results

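Fat is stored in and between muscle fibres, and 5 genes of fat storage or of fat cells were followed through sheep skeletal muscle: LPL, SCD, DGAT2, ADIPOQ and FABP4. They were chosen by name as products of fat cells and as enzymes of fat uptake and storage, with earlier results of these data known. The array carried 6 probe sets for them, 2 of which belong to FABP4, out of 24128 probe sets and 9155 named genes in all. All 6 were among the 15654 probe sets tested, and all 5 symbols also occur in the sheep RefSeq gene table.

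Lipoprotein lipase (LPL) splits the triglyceride of circulating lipoproteins at the capillary wall, and muscle fibres as well as fat cells make it. Stearoyl-CoA desaturase (SCD) puts a double bond into newly made saturated fatty acids, and DGAT2 joins the last fatty acid to diacylglycerol to give triglyceride. Adiponectin (ADIPOQ) is a hormone of fat cells, and FABP4 is the fatty acid carrier typical of fat cells that endothelium and macrophages also hold. In muscle the fat cells lie between the fibres, while droplets of triglyceride lie inside fibres, mainly slow ones.

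The 24 arrays measured RNA from Dorset/Suffolk/Rambouillet cross-bred sheep on a bovine Affymetrix chip. At the callipyge locus NN lambs were wild type and CC lambs homozygous for the mutation. CN lambs had it from the father and show the callipyge muscling, and NC lambs had it from the mother. Longissimus dorsi (LD), a back muscle, was taken from all 4 genotypes at T0, within 5 days of birth, and at T12, 11 to 12 weeks of age. Supraspinatus (SS), a shoulder muscle, came from CN and NN at T12, and the hind-limb muscles coded SM and ST from NN at T12. The labels give SM conflicting names, so the code is kept, and the age was read from the sample titles because part of the T12 labels speak of birth. Each of the 12 groups had 2 arrays that the labels call technical replicates. The protocol speaks of 8 male lambs, 4 of each of a pair of genotypes, and the number of lambs per array is not known here. Each group therefore entered the tests as 1 value, the mean log2 of its 2 arrays. For comparisons of muscle, age and CN, p-values rest on the spread between the CC, NC and NN group values of LD. For CC and NC against NN over both ages, they rest on what genotype and age leave unexplained among the 8 LD groups. A difference between genotypes or muscles cannot be told apart from one between the animals sampled.

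Signals are MAS5 intensities on a linear scale, scaled by the authors to a common trimmed mean. The array medians lay between 47.4 and 59.7, and a signal under 47.4 may not be above background. LPL, SCD and the brighter FABP4 probe set were above the array's own median on all 24 arrays, ADIPOQ on 23, the dimmer FABP4 probe set on 18 and DGAT2 on 12. Other products of fat cells were mixed: of 8 fat cell markers, 6 had a probe set, and LEP (leptin) was above the array median on 0 of 24 arrays, CIDEC on 7, CFD on 22 and PPARG on 23. All 8 skeletal muscle markers were measured and summed to 171599 to 276268 per array. In such bulk RNA fewer cells of a type and less RNA per cell cannot be told apart. DLK1, an inhibitor of fat cell formation that the callipyge mutation is known to raise in muscle, was highest in LD of CN lambs. On the brighter of its 2 probe sets its signal was 11364 and 8064 on the LD CN arrays at T12 and 3865 and 4334 at T0. The LD CC arrays at T12 read 2577 and 3081, and all other arrays, SS CN included, lay between 873.5 and 1526.

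**Figure D1:**
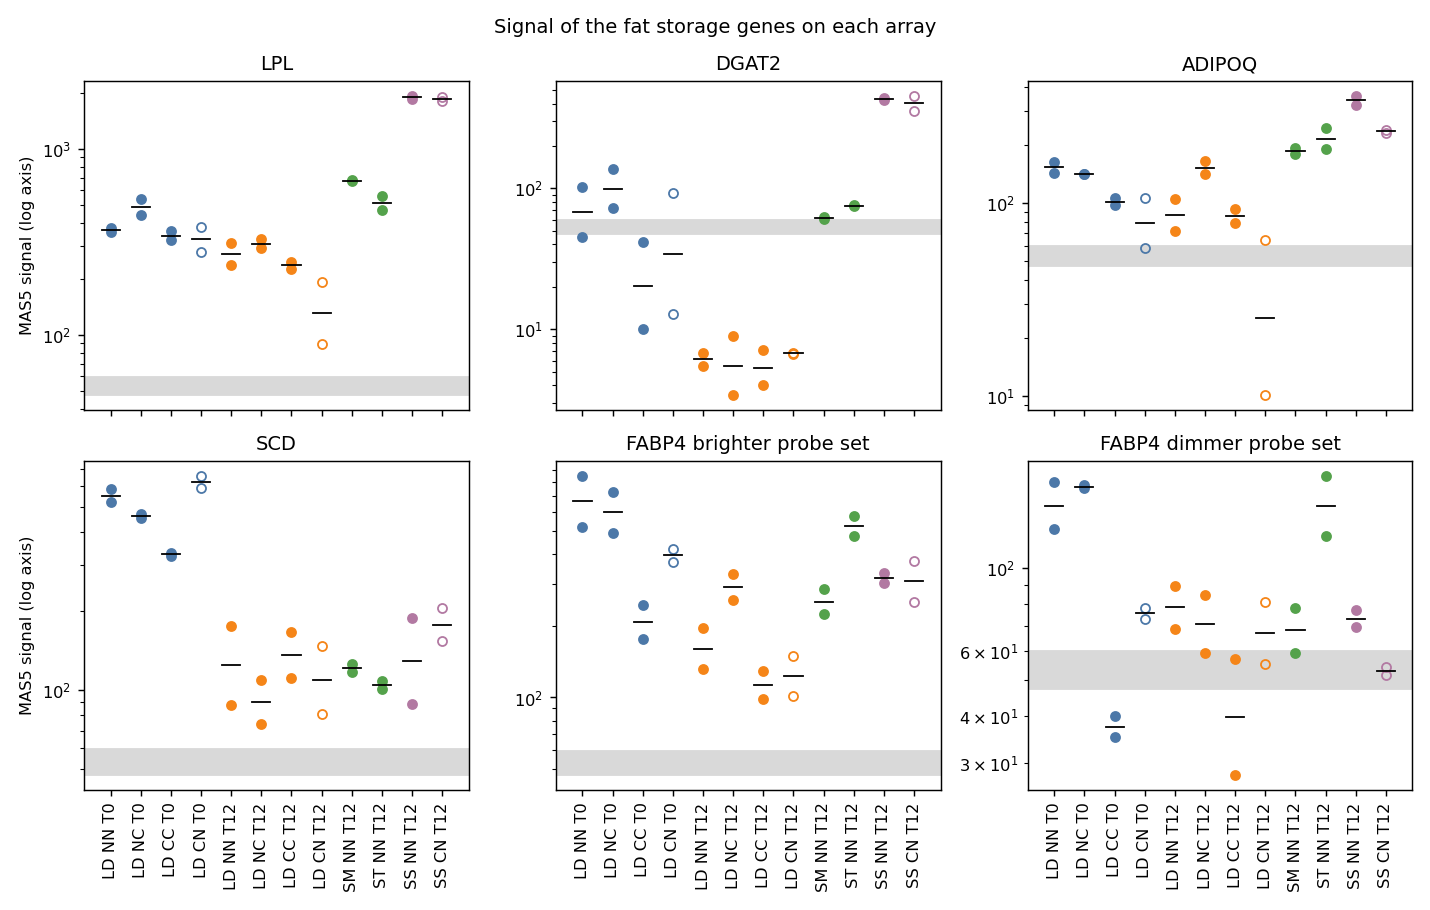
MAS5 signal (log axis) of the 6 probe sets on each of the 24 arrays, by group; points are arrays (open for CN), bars are geometric means of the 2 arrays, and the grey band spans the array medians of 47.4 to 59.7. LPL and DGAT2 were higher on the 4 SS arrays than on every other array, SCD was highest on the 8 T0 arrays, and ADIPOQ was lowest in LD CN at T12.

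Differences past the threshold were found between muscles and between ages. SS of wild type lambs had higher LPL, DGAT2 and ADIPOQ than LD of the CC, NC and NN lambs at T12, so 3 of the 6 probe sets passed an adjusted p of 0.05 in limma, all upward. Over all tested probe sets 2.96% passed in that comparison, 1.42% upward. With age, SCD and DGAT2 fell in LD, 2 of 6 probe sets, against 11.7% of all probe sets passing and 5.79% falling. In CN against the other genotypes 0 of 6 passed at T12, where 0.179% of all probe sets passed, and 0 of 6 at T0, where 0.172% did. At an unadjusted p under 0.05, limma gave 2 of 6 at T12 (ADIPOQ and LPL) and 0 of 6 at T0.

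**Figure D2:**
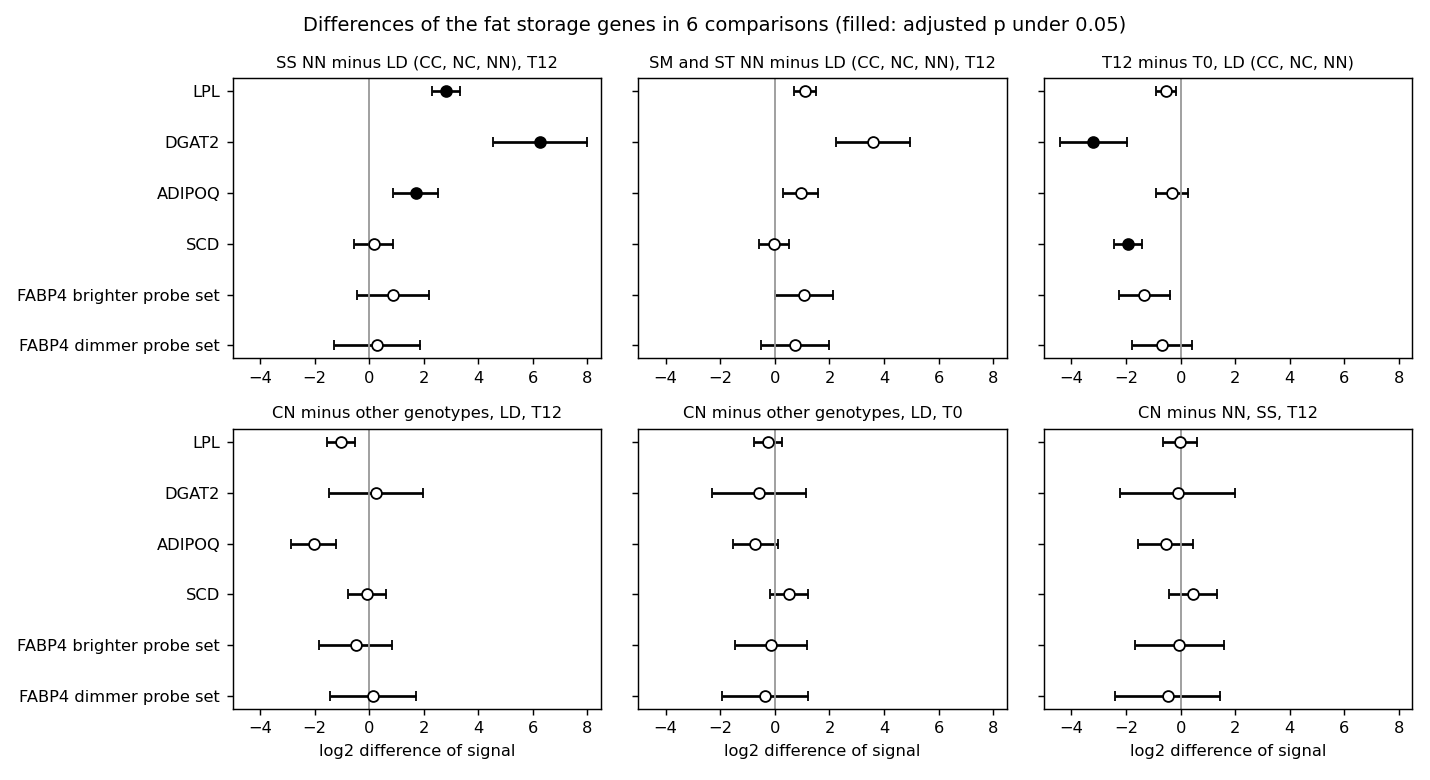
Log2 differences of signal for the 6 probe sets in 6 comparisons, with 95% intervals of the limma fit; filled points passed an adjusted p of 0.05. The filled points are LPL, DGAT2 and ADIPOQ in SS against LD, and SCD and DGAT2 with age.

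LPL, the gene of fatty acid uptake, differed between the muscles. Its signal was 1920 and 1859 on the SS NN arrays and 1896 and 1808 on the SS CN arrays. On the SM arrays it was 673 and 677, and on the ST arrays 557 and 468. The 6 LD arrays of CC, NC and NN at T12 ran from 227 to 326 with a median of 269.7. The SS arrays did not overlap any of the other 20, the SM and ST arrays lay between SS and LD, and the CN and NN arrays of SS overlapped. SS against LD differed by 2.80 ± 0.23 (log2 ± SE; 6.97-fold, 95% interval 4.88 to 9.96, adjusted p = 0.00014, limma). SS against the mean of SM and ST differed by 1.69 ± 0.25 (3.22-fold, limma adjusted p = 0.0104), the only 1 of the 6 probe sets to pass there, where 0.997% of all did. That call was lost without the intensity trend (adjusted p = 0.155) and with a floor of 47.4 on the signal (0.0531). Over the 6 other settings and the 24 fits without 1 array, its adjusted p ran from 6.5e-05 to 0.155. SM and ST together were 1.12 ± 0.18 above LD, which did not pass (limma adjusted p = 0.126), and 0 of the 6 did in a comparison where 0.0447% of all probe sets passed and 4 of the 6 had an unadjusted p under 0.05. Over the 4 muscles at once, limma's F test passed LPL (F = 50.7, adjusted p = 0.00114) and DGAT2 (F = 25.5, adjusted p = 0.0072), 2 of 6 against 1.28% of all. Neither passed without the intensity trend (adjusted p = 0.0991 and 0.122), and over the settings their adjusted p ran from 5.9e-08 to 0.0991 for LPL and from 7.7e-06 to 0.165 for DGAT2. ADIPOQ had F = 8.19 and did not pass (adjusted p = 0.124).

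In LD, LPL was lowest in the callipyge lambs at T12, with 193 and 89.2 on the 2 CN arrays. Both lay under the 6 arrays of the other genotypes, a pattern that 7.57% of all tested probe sets shared, and LPL and ADIPOQ were the 2 of 6 that did. The difference of −1.05 ± 0.23 (2.06-fold lower, 95% interval 1.45 to 2.95) did not pass (limma adjusted p = 0.121). It depended on a single array, since it was −0.49 without LD CN T12 replicate 2 and −1.60 without replicate 1, which passed (adjusted p = 0.00973). Across all settings its adjusted p ran from 0.00973 to 0.404. At T0 the CN arrays read 381 and 278 and overlapped the others, which ran from 323.5 to 534 with a median of 368. LPL at T12 differed from T0 by −0.53 ± 0.16 in CC, NC and NN, which missed the threshold (limma adjusted p = 0.0613). It passed without LD NC T12 replicate 1 (adjusted p = 0.0459) among adjusted p-values of 0.0178 to 0.568 over the settings.

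Of 7 genes listed as LPL partners or fatty acid entry proteins, 6 were measured and tested. In SS against LD, 1 of the 6 rose, the fatty acid transporter CD36, against 1.42% of all probe sets. Positive differences were 3 of 6, with a median of 0.12 where the median of all probe sets was 0.02. CD36 read 6932 and 7998 on the SS NN arrays, above 4397 and 4721 on the SS CN arrays and above 1883 to 3255 in LD of CC, NC and NN. SM read 4398 and 5327, overlapping SS CN, and ST read 2619.5 and 2455.6, inside the LD range. The SS NN difference from LD was 1.51 ± 0.21 (limma adjusted p = 0.00323). From the mean of SM and ST it was 1.09 ± 0.22 (limma adjusted p = 0.0497), where 0.997% of all probe sets passed. In LD CN at T12 CD36 had its lowest arrays, 1438 and 1729, without passing (−0.73 ± 0.21, adjusted p = 0.236). With age, where 11.7% of all probe sets passed, 1 of the 6 rose. This was ANGPTL4, a secreted inhibitor of LPL, by 1.12 ± 0.19 (limma adjusted p = 0.00444). Its LD arrays of CC, NC and NN went from 120 to 242 at T0 up to 298 to 441 at T12. The other bright genes of this list were VLDLR, a lipoprotein receptor, and SEL1L, which helps LPL leave the endoplasmic reticulum. VLDLR differed by 0.69 ± 0.25 in SS against LD (adjusted p = 0.189) and by −0.02 ± 0.18 with age (adjusted p = 0.954). SEL1L differed by 0.34 ± 0.20 (adjusted p = 0.466) and by 0.38 ± 0.14 (adjusted p = 0.116).

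DGAT2, the last enzyme of triglyceride synthesis, was also highest in SS and lowest in LD at T12, where its signal lay below the array medians. It read 427 and 437 on the SS NN arrays and 356 and 452.5 on the SS CN arrays. SM read 62.3 and 60.2, and ST 76.3 and 74.5. On all 8 LD arrays at T12 it lay between 3.4 and 9, with a median of 6.75. The SS arrays stood apart from the other 20, as LPL did, a pattern of 2.35% of all probe sets. SS, SM and ST all lay above every LD array at T12 for ADIPOQ, DGAT2 and LPL, 3 of 6 probe sets, against 0.396% of all. The fitted difference of SS NN from LD was 6.26 ± 0.78 (limma adjusted p = 0.00166). Its size rests on LD values below the array medians. With a floor of 47.4 the difference was 3.19 and still passed, within limma adjusted p-values of 1.9e-06 to 0.047 over the settings. Against SM and ST, where all arrays were above 47.4, SS was 2.67 ± 0.83 higher, which did not pass (limma adjusted p = 0.216). SM and ST against LD gave 3.59 ± 0.62 (adjusted p = 0.134), or 0.52 with that floor.

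At T0 DGAT2 was higher and uneven in LD, with 102 and 45.3 in NN, 72.2 and 137 in NC, 41.6 and 10 in CC, and 92 and 12.9 in CN. All 8 T0 arrays lay above all 8 T12 arrays, as they did for SCD, a pattern of 2.92% of all tested probe sets. The arrays of 1 group differed by up to several fold at T0, so the genotypes cannot be ordered there. DGAT2 fell by 3.19 ± 0.55 from T0 to T12 in CC, NC and NN (limma adjusted p = 0.00457). With a floor of 47.4 the difference was −0.54 and did not pass (adjusted p = 0.28). The call was also lost without the intensity trend (adjusted p = 0.0529) and with NN alone (−3.47, adjusted p = 0.148), in a range of 6e-05 to 0.28 over all settings. CN did not differ from the other genotypes beyond error at T12 (0.26 ± 0.78) or at T0 (−0.58 ± 0.78), with 95% intervals of −1.46 to 1.97 and −2.30 to 1.13.

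SCD, the desaturase, differed between the ages. In LD at T0 it read 587 and 521 in NN, 453 and 469 in NC, 335 and 325 in CC, and 591 and 660.1 in CN. At T12 the 8 LD arrays ran from 74.1 to 175 with a median of 110.4, the SM and ST arrays from 101 to 125.5, and the SS arrays from 88.3 to 205. Every T0 array was above every T12 array of any muscle, and at T12 neighbouring groups overlapped throughout. Within LD, 2.92% of all tested probe sets had all T0 arrays above all T12 arrays. At T0 the 4 genotypes formed steps without overlap, CN over NN over NC over CC, each on 2 technical arrays. The share of all probe sets with such steps was not counted. At T0 CN lay above the other 6 LD arrays for SCD alone of the 6 probe sets, against 8.37% of all. The CN difference in SCD of 0.51 ± 0.32 did not pass (limma adjusted p = 0.52). Over both ages SCD differed from NN by −0.30 in CC and by −0.36 in NC. Neither passed (limma adjusted p = 0.947 and 0.995). SCD fell by 1.93 ± 0.23 with age in CC, NC and NN (3.81-fold, 95% interval 2.69 to 5.39, limma adjusted p = 0.00073), and passed in each of the settings and array removals tried (adjusted p 1.5e-06 to 0.0411). By genotype the log2 difference was −1.27 in CC, −2.16 in NN, −2.35 in NC and −2.52 in CN. SS differed from LD by 0.17 ± 0.32, with a 95% interval of −0.54 to 0.88.

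Of 18 genes of fatty acid and triglyceride synthesis, 17 had a probe set and 16 were tested. With age 2 of 16 fell and 0 rose, where 11.7% of all probe sets passed and 5.79% fell. Negative differences were 13 of 16, with a median of −0.27 against 0.06 over all probe sets. ACLY, which makes the acetyl-CoA for fat synthesis, fell by 0.88 ± 0.22 (limma adjusted p = 0.0232). AGPAT2, which adds a fatty acid on the way to triglyceride, fell by 2.35 ± 0.58 (limma adjusted p = 0.0247). Its LD arrays at T12 read 6.1 to 22.4, below the array medians. The brightest of the list were SREBF1, a transcription factor of lipid synthesis, at −0.56 ± 0.17 (adjusted p = 0.0544), ACSL1, which activates fatty acids, at −0.26 ± 0.09 (0.0986) and ELOVL5, an elongase, at −0.29 ± 0.16 (0.284). In CN at T12, 0 of 16 passed, and 0 at T0, where 0.179% and 0.172% of all probe sets did. SREBF1 came near at T0, where the 2 CN arrays read 1120.5 and 1165 and the other LD arrays 415 to 554 (1.29 ± 0.24, limma adjusted p = 0.0549). Between SS and LD 0 of 16 passed, where 2.96% of all probe sets did. There 9 were positive, with a median of 0.15 against 0.02 over all probe sets. ACSL1 differed by 0.55 ± 0.13 (adjusted p = 0.051).

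ADIPOQ, the fat cell hormone, was highest in SS and lowest in LD of the callipyge lambs. It read 324 and 359 in SS NN, 239.6 and 231 in SS CN, 244 and 191 in ST, and 194 and 179.7 in SM. In LD at T12 it was 142 and 165 in NC, 105 and 71.9 in NN, and 78.6 and 93.8 in CC. The LD CN arrays at T12 read 64.6 and 10.1, below all others of that age, and differed from each other more than any other pair. SS NN stood 1.71 ± 0.37 above LD (3.27-fold, 95% interval 1.85 to 5.78, limma adjusted p = 0.0354). The call was lost without the intensity trend (adjusted p = 0.173), with NN alone (0.116), with the floor of 47.4 (0.111) and without LD NN T12 replicate 1 (0.0521), in a range from 0.0121 to 0.173. SM and ST together stood 0.94 ± 0.29 above LD of CC, NC and NN, which did not pass (limma adjusted p = 0.478). In LD at T12 CN differed from the other genotypes by −2.03 ± 0.37 (4.09-fold lower, 95% interval 2.31 to 7.23), which did not pass (limma adjusted p = 0.0665). The difference was −0.69 without LD CN T12 replicate 2, −3.37 without replicate 1 (adjusted p = 0.00312) and −0.92 with the floor of 47.4, and its adjusted p ran from 0.00312 to 0.543 over the settings. At T0 the CN arrays, 106.5 and 58.9, overlapped those of the other genotypes, 97.4 to 164 with a median of 141.5 (−0.72 ± 0.37, adjusted p = 0.52).

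FABP4, the fatty acid carrier, varied within LD. Its brighter probe set read 852 and 521 in NN, 489 and 728 in NC, 369.9 and 419.9 in CN, and 175.5 and 245 in CC at T0. At T12 it read 131 and 195 in NN, 257.5 and 331 in NC, 102 and 149 in CN, and 129 and 98.5 in CC. ST read 477 and 577, SM 223.5 and 284, SS NN 333 and 301, and SS CN 375 and 251. The T0 arrays were mostly higher, with CC the exception at T0, and SS lay inside the range of the other muscles. On the brighter probe set SM and ST together stood 1.06 ± 0.48 above LD of CC, NC and NN at T12. That did not pass (limma adjusted p = 0.672). The difference of T12 from T0 was −1.32 ± 0.43 for the brighter probe set in CC, NC and NN, which did not pass (limma adjusted p = 0.0717). It passed without LD CC T0 replicate 1 (adjusted p = 0.0446) and ranged from 0.0044 to 0.222 over the settings. The dimmer probe set ran from 27.9 to 177 over all arrays, and its difference with age was −0.68 ± 0.50 (adjusted p = 0.434). Over the 12 groups the 2 probe sets correlated with r = 0.78, a description over groups that share genotypes and muscles.

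The homozygote had the lowest mean FABP4 of LD at both ages, on both probe sets. Against NN over both ages, CC differed by −1.10 ± 0.28 on the brighter probe set and by −1.47 ± 0.38 on the dimmer one. Neither passed (limma adjusted p = 0.602 for both), as 0 of the 6 did, 2 of them at an unadjusted p under 0.05. Of all probe sets 0.0128% passed, and all 6 differences of CC from NN were negative, from −0.15 to −1.47. NC against NN gave 0 of 6 past the threshold and 0 of 6 at an unadjusted p under 0.05, with differences from −0.36 to 0.35, and again 0.0128% of all probe sets passed. Both comparisons use the same NN groups.

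Of 13 genes that mark fat cell identity, 10 had a probe set and 7 were tested. With age 2 rose, FABP5, a fatty acid carrier of many cell types, by 1.08 ± 0.16 (limma adjusted p = 0.00222) and CFD, the fat cell protease adipsin, by 0.83 ± 0.19 (adjusted p = 0.0151). Of all tested probe sets 11.7% passed with age. The 7 differences were split, 4 positive and 3 negative. Their median was 0.34 against 0.06 over all probe sets, opposite in sign to the difference of FABP4. The summed fat cell markers, which include ADIPOQ and FABP4, had a median of 951.4 at T0 and 628.1 at T12 in LD of CC, NC and NN. Their arrays ran from 624.7 to 1330 and from 593 to 866. FABP5 arrays of CC, NC and NN ran from 1945 to 2458 at T0 and from 3402 to 5919 at T12. AQP7, a glycerol channel, differed by −0.43 ± 0.14 (adjusted p = 0.0744). CFD was the 1 of the 7 that passed in SS against LD, where 2.96% of all probe sets did. Its difference was −1.61 ± 0.26 (limma adjusted p = 0.00807), but the SS NN arrays disagreed, with 174 and 29.5. FABP5 differed by −0.43 ± 0.23 (adjusted p = 0.399) and AQP7 by 0.76 ± 0.20 (adjusted p = 0.0739). In LD CN at T12, 0 of 7 passed, where 0.179% of all probe sets did. There 6 were negative, with a median of −0.57 against −0.06 over all probe sets.

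Adiponectin acts on muscle through ADIPOR1 and ADIPOR2 and binds the surface protein CDH13. All 3 were tested, and with age 1 fell, CDH13, by 0.50 ± 0.12 (limma adjusted p = 0.0206), where 5.79% of all probe sets fell. ADIPOR2 differed by 0.57 ± 0.17 (adjusted p = 0.0595) and ADIPOR1 by −0.53 ± 0.42 (0.46). Between SS and LD 0 of 3 passed, where 2.96% of all probe sets did, and all 3 were negative. In LD CN at T12 0 of 3 passed, where 0.179% of all probe sets did, with 1.51 ± 0.59 for ADIPOR1 (limma adjusted p = 0.405). The size of that difference rests on dim arrays. ADIPOR1 read 130.8 and 135.3 in CN, against 11.5 and 65.8 in NC, 77.4 and 27.6 in CC, and 69.8 and 93 in NN.

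Genes that release stored fat or coat droplets were measured for 9 of 11 listed. In SS against LD 8 of the 9 differences were positive, with a median of 0.62 against 0.02 over all probe sets. Past the threshold was 1 of the 9, against 2.96% of all probe sets. This was PLIN5, a droplet coat protein of oxidative tissue, at 849 and 799 on the SS NN arrays and 228 to 364 in LD of CC, NC and NN at T12 (1.46 ± 0.23, limma adjusted p = 0.0067). LIPE, hormone-sensitive lipase, differed by 0.83 ± 0.23 (adjusted p = 0.083) and PLIN3, another coat protein, by 0.66 ± 0.34 (adjusted p = 0.382). With age, where 5.79% of all probe sets fell, 1 of the 9 fell. This was FITM2, which helps droplets form, by 0.997 ± 0.277 (limma adjusted p = 0.0402), with LD arrays at T12 between 26 and 60.3. In CN at T12 0 of 9 passed, where 0.179% of all probe sets did, and 7 were negative.

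**Figure D3:**
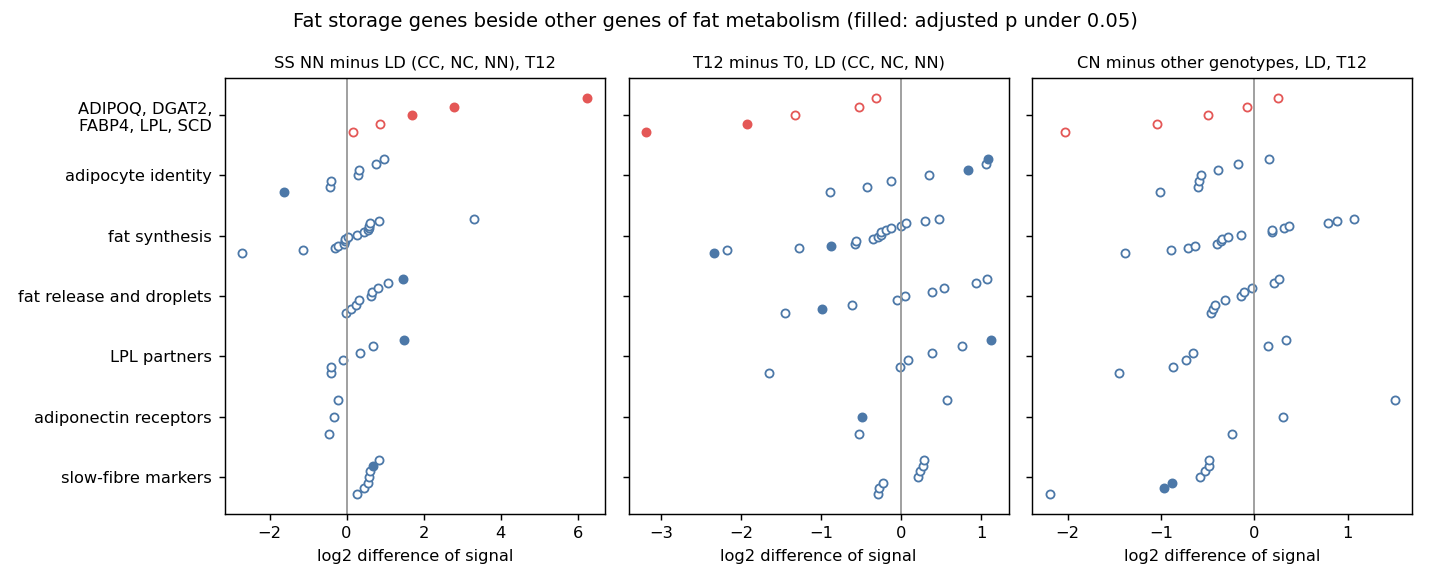
Log2 differences of the 5 genes (1 probe set each, red) and of the tested genes of the related lists (blue) in 3 comparisons; each point is a gene and filled points passed an adjusted p of 0.05. In SS against LD all 7 slow-fibre markers were positive, and in CN against the other genotypes at T12 all 7 were negative.

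The callipyge difference was also set against age and muscle directly. The interaction of CN with age was −1.31 ± 0.53 for ADIPOQ and −0.78 ± 0.33 for LPL, and neither passed (limma adjusted p = 0.50 and 0.528). Without LD CN T12 replicate 2 it came to 0.03 for ADIPOQ and −0.22 for LPL, and without replicate 1 to −2.65 and −1.33. With the floor of 47.4 it was −0.20 for ADIPOQ. In SS, CN and NN differed by −0.54 to 0.46 over the 6 probe sets, and 0 passed (limma adjusted p = 1.0 for each), with 0 of 6 at an unadjusted p under 0.05. For LPL that difference was −0.03 with a 95% interval of −0.66 to 0.60. The CN difference in SS minus that in LD was 1.02 ± 0.37 for LPL and 1.495 ± 0.59 for ADIPOQ, which did not pass (limma adjusted p = 0.892 and 0.924). Leaving out 1 array moved it between 0.46 and 1.57 for LPL and between 0.16 and 2.83 for ADIPOQ, the low values without LD CN T12 replicate 2 and the high ones without replicate 1. With the floor of 47.4 it was 0.38 for ADIPOQ. In these 3 comparisons 0 of the 15654 probe sets passed, a share of 0%, while 1392, 656 and 777 had an unadjusted p under 0.05. The comparisons of CN and of SS with LD at T12 share the same CC, NC and NN groups.

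Slow-fibre markers also differed between the muscles and in LD of the callipyge lambs. The summed signal of 7 of 8 slow-fibre markers was 158726 to 176672 on the SS arrays, 112932 to 159844 in SM and ST, 95548 to 127058 in LD of CC, NC and NN at T12, and 65913 and 70676 in LD CN. In SS against LD 1 of the 7 rose, TNNT1, by 0.68 ± 0.14 (limma adjusted p = 0.0246), against 1.42% of all probe sets. In LD CN at T12 TNNT1 fell by 0.97 ± 0.14 (limma adjusted p = 0.0368) and MYH7 by 0.89 ± 0.14 (adjusted p = 0.0491). These were 2 of the 7, against 0.179% of all probe sets passing. MYH7 differed by 0.58 ± 0.14 in SS (adjusted p = 0.0573). The bright MYL2 and TNNC1 differed by 0.55 ± 0.14 and 0.45 ± 0.13 in SS and by −0.58 ± 0.14 and −0.49 ± 0.13 in CN, without passing. The 8 skeletal muscle markers were ACTA1, CKM, MYH1, TNNT3, TNNI2, TNNC2, DES and MB, a list not split by fibre type. In SS against LD 2 of them fell, where 2.96% of all probe sets passed in either direction. There 7 were negative, with a median of −0.17 against 0.02 over all probe sets. In LD CN at T12 0 of these 8 passed, where 0.179% of all did. There 6 were negative, with a median of −0.07 against −0.06 over all probe sets. The summed fat cell markers, which include ADIPOQ and FABP4, ran from 845 to 1078 in SS, 826 to 1248 in SM and ST, 593 to 866 in LD of CC, NC and NN at T12, and were 479 and 484 in LD CN. Fibroblast markers summed to 28932 and 33450 in LD CN at T12 and 38934 to 53442 in LD of the other genotypes. In SS they summed to 46373 to 52806, and in SM and ST to 43344 to 49239. Macrophage markers summed to 407.5 and 469 in LD CN and 527 to 678.5 in LD of the other genotypes at T12. In SS they summed to 480.7 to 633.4, and in SM and ST to 744.8 to 876. Endothelial markers summed to 1930 to 2306 in SS and 2560.5 to 3347 in LD of CC, NC and NN at T12. In LD CN they summed to 2508 and 2683, and in SM and ST to 2222 to 3307. The log2 ratio of the 3′ to the 5′ GAPDH control probe sets, a sign of RNA quality, was −0.03 to 0.09 in SS, −0.03 and 0.08 in LD CN at T12, and 0.04 to 0.25 in the other LD groups of that age. In SM and ST it was 0.11 to 0.22, and in LD at T0 0.13 to 0.31. The same ratio for actin was 0.05 to 0.14 in SS, and 0.04 and 0.05 in LD CN at T12. In the other LD groups of that age it was 0.03 to 0.29, and in LD at T0 −0.07 to 0.22. The part of these markers and of RNA quality in the differences of LPL, DGAT2, SCD and ADIPOQ was not tested.

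Over the 12 groups the 5 genes correlated unequally. LPL correlated with DGAT2 at r = 0.90 (0.78 over the 10 groups without SS) and with ADIPOQ at 0.86 (0.90 without SS). SCD correlated with LPL at r = −0.03 and with ADIPOQ at −0.05. These coefficients describe log2 group values that share animals, arrays and scaling. Ranked by the same measure among all named genes tested, the closest to LPL were TMEM120A (r = 0.99), DPYSL2 (0.96) and FABP3, the fatty acid carrier of muscle (0.95). Closest to DGAT2 were CPT1B, which admits fatty acids to mitochondria in muscle (0.94), SDC2 (0.94) and LDHB, the heart-type subunit of lactate dehydrogenase (0.92). Closest to SCD were MANF (0.97) and HSPA5 (0.97), both proteins of the endoplasmic reticulum, and the growth factor IGF2 (0.96). Closest to ADIPOQ were ATP2A2, the calcium pump of slow fibres (0.90), ASAH1 (0.90) and OTULINL (0.90), and closest to FABP4 were SPRYD4 (0.90), RAP1A (0.89) and ANXA2 (0.88).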

How the data were processed

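The authors deposited 1 MAS5 intensity for each probe set and array, on a linear scale, per the submitters' processing notes. The MAS5 version is not given here. Values under 1 (4295 of 579072) were set to 1 before log2. The 112 control probe sets were left out, and a probe set was tested if its mean log2 signal passed the overall median in 1 or more groups. Symbols came from the platform annotation of 2016. Tests used limma 3.58.1 in R 4.3.3 (moderated by eBayes with a trend on intensity, 2-sided, adjusted by Benjamini-Hochberg over all tested probe sets), checked on simulated data. The 12 group values were fitted in 8 cells, LD CC, NC and NN of an age sharing a cell (residual degrees of freedom 4, prior 6.89). CC and NC against NN were fitted over the 8 LD groups with age (3 and 7.13). Groups with 1 value are assumed to vary like those of LD. The number of arrays limits the precision, and sheep RNA can bind bovine probes less well. The genes and lists were chosen with earlier results of these data known. Named are all 6 probe sets, singly where the unadjusted p was under 0.05 or to show a null, the 3 brightest and the passing genes of each fat-metabolism list and, for slow-fibre markers, also those passing, the 3 most alike genes and DLK1. The alternatives were a floor of 16, no filter, quantile normalization, no intensity trend, NN alone and each array left out. Arrays were also fitted singly, with the group as block and the replicate number as covariate. A floor of 47.4, the lowest array median, was added after seeing the data. No coordinates or sequences are given.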

Additional observations from a re-analysis of the deposited data

How the results depend on the processing

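Arrays of different groups are matched only by replicate number. Over 66 pairs of groups the difference of replicate 1 and 2 correlated by −0.07 to 0.10. With arrays fitted singly and the group as block, the spread between technical arrays enters the error. The number of the 6 probe sets passing was then 2 in place of 0 for CN in LD at T12. It was 4 in place of 2 with age and 2 in place of 0 for SM and ST against LD. With age it was 1 without the intensity trend, 1 with NN alone and 1 with the floor of 47.4. For SS against SM and ST it was 0 in place of 1 without the trend and with that floor. In the F test it was 0 in place of 2 without the trend, 1 with NN alone and 1 with that floor. Leaving out each array gave 0 to 2 for CN at T12 and 0 to 1 for SM and ST against LD (1 without LD CC T0 replicate 2). The interaction of CN and age for ADIPOQ turned to 0.0259 without LD CN T12 replicate 2 (range −2.65 to 0.0259 over arrays left out). All other counts of the 6 stayed within 1.5 times. Among all tested probe sets, the passing count was 28 for CN at T12 and 0 to 246 in other settings, 27 and 0 to 560 at T0, 1830 and 225 to 2848 with age, 0 and 0 to 146 for the interaction, 0 and 0 to 4 in SS, 156 and 4 to 511 for SS against SM and ST, 463 and 86 to 1135 for SS against LD, 7 and 0 to 88 for SM and ST, 201 and 1 to 852 for the F test, and 2 against 0 to 7 and 0 to 44 for NC and CC. Leaving out 1 array gave 1 to 417 for CN at T12 and 3 to 269 at T0. Dim signal limits DGAT2 in LD at T12.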
